A study of Bos taurus with 30 samples.

Results

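A set of 7 genes of the bovine corpus luteum was examined that had been picked by name because their signal was far lower 24 h after prostaglandin F2α (PGF2α) in day 11 glands and not lower in day 4 glands. They are NAP1L5, TC2N, BCAT2, PTPRR, TNNI3, TNNT1 and BBOX1, 7 of the 9155 genes with a named probe set on the array, and they are read by 10 of its 24016 non-control probe sets. The 24 h comparisons chose them, so all 24 h values of these genes are given as a description with no test. The tissue was whole corpus luteum from 30 Angus crossbred heifers, 5 in each of 6 groups. The groups were day 11 of the estrous cycle at 0 h (saline), 4 h after PGF2α and 24 h after PGF2α, and day 4 at 0 h (saline), 4 h after PGF2α and 24 h after PGF2α. Each heifer gave 1 corpus luteum and 1 Affymetrix Bovine Genome array. No saline group was collected at 4 or 24 h, so on each day the same 0 h heifers are the comparison for both times. Heifers were assigned to groups at random, per the series' design text.

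The corpus luteum is the temporary gland that forms from an ovulated follicle and makes progesterone. PGF2α ends the life of a mature gland, a process called luteal regression, in which progesterone output drops first and the tissue is then broken down and invaded by immune cells. In cattle the young gland of the first days after ovulation binds PGF2α but does not regress after a single injection, which makes day 4 a natural contrast to day 11.

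The 7 genes come from different parts of cell biology. BCAT2 is the mitochondrial branched-chain aminotransferase, which takes the amino group off leucine, isoleucine and valine. BBOX1, gamma-butyrobetaine dioxygenase, carries out the last step of carnitine synthesis, and carnitine carries long-chain fatty acids into mitochondria. TNNI3 and TNNT1 are troponin I of the heart and troponin T of slow skeletal muscle, proteins known from the calcium switch of striated muscle. PTPRR is a receptor-type tyrosine phosphatase that inactivates ERK MAP kinases. TC2N is a protein with tandem C2 domains, a kind of domain that in other proteins binds membranes and calcium. NAP1L5 belongs to the nucleosome assembly protein 1 family of histone chaperones, and in human and mouse it is an imprinted gene read from the paternal copy.

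All values are log2 signals made by the authors with RMA, which removes background, brings the arrays to a common distribution and gives 1 value per probe set, so a difference of 1 is a 2-fold change. Array medians lay between 6.01 and 6.16. Arrays of the same group correlated at 0.978 to 0.994 over all probe sets, and no pair of arrays held identical values. The number of arrays, 5 per group, limits the precision. The defining genes of the tissue were strongly read: STAR, which moves cholesterol into mitochondria for steroid synthesis, averaged 13.60 in day 11, 0 h glands and 12.87 in day 4, 0 h glands, far above the array medians. In 2 places an array stood apart. The day 4, 24 h replicate 1 was closer to the day 4, 0 h group than to its own. The day 11, 4 h replicate 1 had a difference between the 3′ and 5′ probe sets of the control transcript EF1A of -1.40, against -2.46 to -2.28 in the other arrays of its group, and the lowest array weight of all, 0.318. Its values are pointed out below where they matter. In whole tissue, fewer cells of a type and less RNA per cell cannot be told apart, and this holds for every difference given here.

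**Figure D1:**
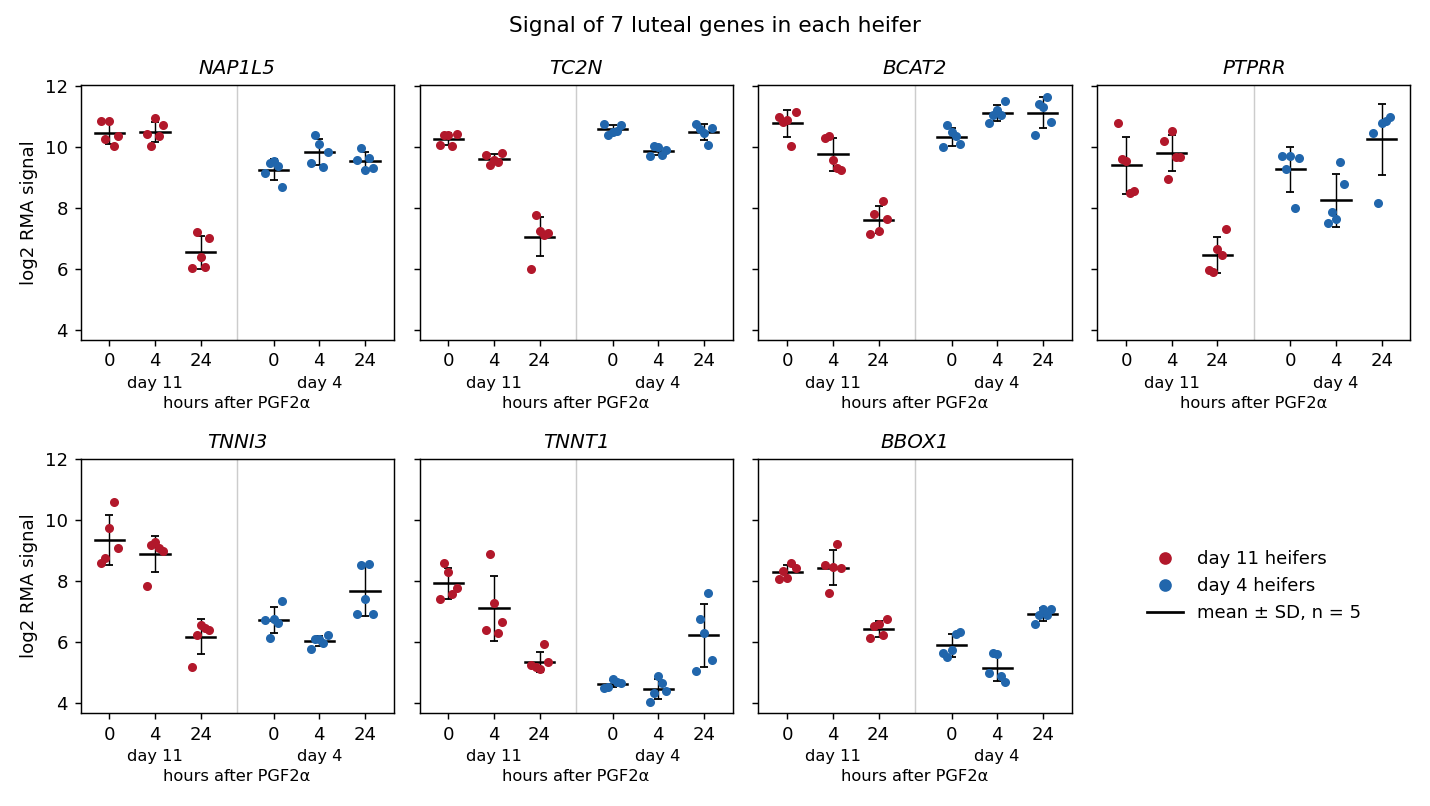
Log2 RMA signal of the 7 genes (vertical axis) in each heifer, by hours after PGF2α at day 11 (red) and day 4 (blue); each point is 1 heifer, and lines are mean ± SD of 5. NAP1L5, TC2N, BCAT2 and PTPRR stand high in all groups but day 11, 24 h, while TNNI3, TNNT1 and BBOX1 have their 2 highest means in the day 11 groups at 0 and 4 h, which single day 4, 24 h heifers overlap for TNNI3 and TNNT1.

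BCAT2 (Entrez Gene 281643) was read by the probe set Bt.9004.1.S1_at. On day 11 its signals were 10.96, 10.81, 10.88, 10.01 and 11.12 at 0 h, 10.29, 10.35, 9.56, 9.31 and 9.24 at 4 h, and 7.15, 7.78, 7.23, 8.22 and 7.63 at 24 h. On day 4 they were 9.99, 10.70, 10.47, 10.34 and 10.07 at 0 h, 10.76, 11.03, 11.19, 11.02 and 11.50 at 4 h, and 10.38, 11.40, 11.30, 11.64 and 10.80 at 24 h. Every day 11 heifer at 24 h lay below every heifer of the other 5 groups. The day 11 mean was 7.60 ± 0.44 at 24 h against 10.76 ± 0.43 at 0 h (SD, n = 5 each), a difference of -3.15, or 8.91-fold lower. On day 4 the mean was 11.10 ± 0.51 at 24 h against 10.31 ± 0.29 at 0 h, 0.79 higher. In order of the means the other groups ran from day 4 at 24 h and day 4 at 4 h, through day 11 at 0 h and day 4 at 0 h, to day 11 at 4 h, and each of these overlapped the next. The second BCAT2 probe set, Bt.25464.1.A1_at, averaged 3.57 over the 30 arrays, under the 4.50 below which the dimmest 30% of probe sets lay, and its group means spanned only 0.43.

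BBOX1 (Entrez Gene 507159) was read by a pair of probe sets, both bright enough to follow. With Bt.21759.2.A1_at the day 11 signals were 8.07, 8.35, 8.12, 8.59 and 8.44 at 0 h, 8.54, 7.61, 8.47, 9.21 and 8.43 at 4 h, and 6.14, 6.54, 6.60, 6.23 and 6.76 at 24 h. The day 4 signals were 5.64, 5.51, 5.74, 6.28 and 6.33 at 0 h, 4.99, 5.67, 5.63, 4.88 and 4.72 at 4 h, and 6.59, 6.90, 7.10, 6.91 and 7.08 at 24 h. The day 11 heifers at 0 and 4 h lay above all others, and the day 11 heifers at 24 h overlapped both the day 4, 24 h and the day 4, 0 h heifers. The day 11 mean was 6.45 ± 0.26 at 24 h against 8.31 ± 0.22 at 0 h (SD, n = 5 each), a difference of -1.86 or 3.63-fold lower. On day 4 the mean was 6.92 ± 0.21 at 24 h and 5.90 ± 0.38 at 0 h, 1.02 higher with no overlap. The probe set Bt.21759.1.S1_at followed the same course, with a correlation of 0.94 between both over the 30 arrays. On it the 24 h difference was -2.39 on day 11 and 1.03 on day 4. The probe sets parted most in the day 11, 4 h replicate 1, which read 8.54 on one and 6.69 on the other; this is the array with the deviating EF1A value.

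TNNI3 (Entrez Gene 511094, Bt.11438.1.S1_at) had day 11 signals of 8.60, 8.78, 9.73, 10.61 and 9.08 at 0 h, 7.85, 9.18, 9.30, 9.10 and 8.99 at 4 h, and 5.19, 6.26, 6.58, 6.48 and 6.41 at 24 h. Its day 4 signals were 6.73, 6.16, 6.78, 6.62 and 7.36 at 0 h, 5.80, 6.11, 6.12, 5.99 and 6.24 at 4 h, and 6.92, 8.53, 7.41, 8.57 and 6.94 at 24 h. The day 11 heifers at 24 h overlapped the day 4 heifers at 0 and 4 h and lay below every untreated day 11 heifer. The means were 6.18 ± 0.57 at 24 h against 9.36 ± 0.82 at 0 h on day 11, a difference of -3.18 or 9.04-fold lower. On day 4 they were 7.67 ± 0.82 at 24 h and 6.73 ± 0.43 at 0 h, 0.94 higher with overlap (SD, n = 5 each).

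TNNT1 (Entrez Gene 282095, Bt.4160.1.S1_at) had day 11 signals of 7.42, 8.61, 8.31, 7.58 and 7.78 at 0 h, 6.41, 8.90, 7.29, 6.31 and 6.66 at 4 h, and 5.25, 5.21, 5.12, 5.94 and 5.35 at 24 h. Its day 4 signals were 4.51, 4.54, 4.82, 4.71 and 4.68 at 0 h, 4.05, 4.35, 4.91, 4.66 and 4.40 at 4 h, and 5.05, 6.75, 6.31, 7.60 and 5.42 at 24 h. The day 4 heifers at 0 h were within a narrow band close to the dim limit of 4.50, where a fall may not show. At 24 h every day 4 heifer stood above that band. The day 11 mean was 5.37 ± 0.33 at 24 h against 7.94 ± 0.50 at 0 h, a difference of -2.57 or 5.92-fold lower. The day 4 mean was 6.23 ± 1.03 at 24 h and 4.65 ± 0.13 at 0 h, 1.58 higher (SD, n = 5 each).

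PTPRR (Entrez Gene 536337, Bt.1069.1.A1_at) varied widely between heifers of a group. On day 11 it read 10.79, 9.60, 9.51, 8.49 and 8.56 at 0 h, 10.17, 8.94, 10.52, 9.65 and 9.67 at 4 h, and 5.95, 5.89, 6.64, 6.43 and 7.31 at 24 h. On day 4 it read 9.70, 9.27, 9.69, 7.98 and 9.64 at 0 h, 7.49, 7.84, 7.63, 9.50 and 8.77 at 4 h, and 10.46, 8.17, 10.77, 10.83 and 10.95 at 24 h. The 25 heifers outside the day 11, 24 h group formed 1 overlapping range, with all 5 of that group below it. The day 11 mean was 6.45 ± 0.58 at 24 h against 9.39 ± 0.94 at 0 h, a difference of -2.94 or 7.69-fold lower. The day 4 mean was 10.24 ± 1.17 at 24 h and 9.26 ± 0.74 at 0 h, 0.98 higher with overlap (SD, n = 5 each).

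TC2N (Entrez Gene 534419, Bt.25489.1.A1_at) varied little within a group outside day 11 at 24 h. On day 11 it read 10.06, 10.39, 10.37, 10.01 and 10.40 at 0 h, 9.73, 9.39, 9.57, 9.51 and 9.79 at 4 h, and 6.00, 7.74, 7.25, 7.10 and 7.17 at 24 h. On day 4 it read 10.75, 10.39, 10.48, 10.49 and 10.70 at 0 h, 9.68, 10.01, 9.98, 9.74 and 9.89 at 4 h, and 10.73, 10.57, 10.44, 10.05 and 10.61 at 24 h. Both days had a small step down at 4 h, and at 24 h the day 4 heifers were back among the 0 h values while all day 11 heifers were lower still. The day 11 mean was 7.05 ± 0.64 at 24 h against 10.25 ± 0.19 at 0 h, a difference of -3.19 or 9.15-fold lower. The day 4 mean was 10.48 ± 0.26 at 24 h and 10.56 ± 0.15 at 0 h, a difference of -0.08 (SD, n = 5 each).

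NAP1L5 (Entrez Gene 508508) was read by Bt.24901.1.A1_at and had the lowest 24 h difference of all 9155 genes on day 11. Its day 11 signals were 10.83, 10.26, 10.85, 10.01 and 10.35 at 0 h, 10.40, 10.03, 10.92, 10.34 and 10.69 at 4 h, and 6.02, 7.20, 6.39, 6.05 and 7.0 at 24 h. Its day 4 signals were 9.14, 9.46, 9.54, 9.36 and 8.69 at 0 h, 9.47, 10.37, 10.09, 9.33 and 9.81 at 4 h, and 9.56, 9.96, 9.23, 9.62 and 9.29 at 24 h. The day 11 heifers at 0 and 4 h covered the same range, and the 24 h heifers of day 11 lay below every other heifer. The day 11 mean was 6.53 ± 0.54 at 24 h against 10.46 ± 0.37 at 0 h, a difference of -3.93 or 15.2-fold lower. The day 4 mean was 9.53 ± 0.29 at 24 h and 9.24 ± 0.34 at 0 h, 0.30 higher with overlap (SD, n = 5 each). Its second probe set, Bt.24901.2.A1_at, averaged 2.91, under the dim limit, and its group means spanned 0.35.

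On the representative probe sets all 7 genes separated day 11 at 24 h from day 11 at 0 h with no overlap. That comparison chose the genes, and the share of all probe sets without overlap was not computed. By limma, 15.4% of all probe sets were called lower in it and 14.3% higher. The lowest of the 7 day 4 differences was -0.08, and 3.05% of all probe sets were called lower there and 2.12% higher. Ranked by the day 11 difference among 9155 genes, NAP1L5 stood at 1, TC2N at 3, TNNI3 at 4, BCAT2 at 5, PTPRR at 8, TNNT1 at 11 and BBOX1 at 55. DYSF came next at rank 56 with -1.85 on day 11 and 0.19 on day 4. The same rank range held 47 other genes that were not lower on day 4, so the 7 are a selection from a longer list.

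The low point reached at 24 h on day 11 parted the 7 genes, as the plot of signals by heifer shows. Set against the untreated young gland, the mean at day 11, 24 h differed by -3.51 on the log2 scale for TC2N. The same difference was -2.81 for PTPRR, -2.71 for BCAT2 and -2.70 for NAP1L5. For these 4 genes every regressing gland lay below every untreated day 4 gland. For the troponins and BBOX1 it was otherwise: the difference was -0.55 for TNNI3, 0.55 for BBOX1 and 0.72 for TNNT1. The regressing glands overlapped the untreated day 4 glands for TNNI3 and BBOX1 and lay above them for TNNT1. Both groups helped choose the genes, so this is a description. The share of all probe sets that separate these groups was not computed.

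Between 4 and 24 h on day 11 the means differed by -3.94 for NAP1L5, -3.34 for PTPRR, -2.70 for TNNI3, -2.55 for TC2N, -2.14 for BCAT2, -1.997 for BBOX1 and -1.74 for TNNT1. For BCAT2 and TNNT1 32.02% and 32.17% of the 24 h difference on the log2 scale was present at 4 h, for TC2N 20.26% and for TNNI3 14.97%. The NAP1L5, PTPRR and BBOX1 means at 4 h were not below those at 0 h on the representative probe sets. The other BBOX1 probe set, Bt.21759.1.S1_at, differed by -0.19 at 4 h, 7.93% of its 24 h difference. On day 4 over the same interval the means of PTPRR, TNNT1, BBOX1 and TNNI3 were higher at 24 h than at 4 h, by 1.99, 1.76, 1.74 and 1.62.

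The day 11 and day 4 glands at 4 h were the only groups that took no part in choosing the genes, and there 6 of the 7 genes differed between the days. BBOX1, TNNI3, TNNT1, PTPRR and NAP1L5 were higher in day 11 glands and BCAT2 was lower. Over all probe sets 13.7% were called higher and 17.7% lower in this comparison. TNNI3, TNNT1, BBOX1 and NAP1L5 were already higher in day 11 glands at 0 h, by 2.63, 3.29, 2.42 and 1.22. Those 0 h arrays helped choose the genes, so for these genes the 4 h difference is not fully independent of that choice. BBOX1 was 3.27 ± 0.22 (SE) higher in day 11 glands, 9.66-fold, with a limma adjusted p of 2.2e-11, and its other probe set gave 3.34. TNNI3 was 2.83 ± 0.36 higher, 7.13-fold (limma adjusted p = 7.1e-07), and TNNT1 was 2.64 ± 0.39 higher (limma adjusted p = 6.9e-06). No fold is given for TNNT1, since its day 4 mean at 4 h, 4.47, was under the dim limit. For these 3 genes all 5 day 11 heifers were above all 5 day 4 heifers. BCAT2 was lower in day 11 glands by a difference of -1.35 ± 0.25 (2.56-fold) with no overlap (limma adjusted p = 0.00012). PTPRR was 1.54 ± 0.49 higher (limma adjusted p = 0.016) and NAP1L5 0.66 ± 0.23 higher (limma adjusted p = 0.031), both with overlapping heifers. The NAP1L5 call was lost when any of 5 single arrays was left out, with an adjusted p of up to 0.10. For TC2N the difference was -0.26, with a 95% interval of -0.65 to 0.12 (limma adjusted p = 0.31).

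Before treatment, 4 of the 7 genes were higher in day 11 than in day 4 glands. Over all probe sets 16.2% were called higher and 17.7% lower in this comparison. These 0 h arrays also served the comparisons that chose the genes, so the tests at 0 h and of the 4 h response are not independent of that choice. TNNT1 differed most, by 3.29 ± 0.39 (SE), 9.76-fold, with a limma adjusted p of 2.5e-07. TNNI3 was 2.63 ± 0.36 higher, 6.19-fold (limma adjusted p = 1.6e-06), and BBOX1 2.42 ± 0.22 higher, 5.33-fold (limma adjusted p = 5.7e-09). NAP1L5 was 1.22 ± 0.23 higher, 2.34-fold (limma adjusted p = 0.00014). The 5 heifers of each day did not overlap for any of these 4. TC2N, BCAT2 and PTPRR were not called, with differences of -0.32 (95% interval -0.70 to 0.07), 0.44 (-0.07 to 0.96) and 0.13 (-0.87 to 1.14). With only the arrays of this comparison TC2N passed, at a limma adjusted p of 0.049.

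At 4 h after PGF2α on day 11, TC2N and BCAT2 had fallen and the other 5 genes were not called, where 10.3% of all probe sets were called lower and 8.02% higher. BCAT2 was lower at 4 h by a difference of -1.01 ± 0.25 (SE), 2.01-fold, with a limma adjusted p of 0.0047 and a small overlap between the groups. TC2N differed by -0.65 ± 0.19 with no overlap (limma adjusted p = 0.015). TNNT1 differed by -0.83 ± 0.39 (limma adjusted p = 0.16), and this value depends on single arrays. Without 4 h replicate 2, the heifer at 8.90, the difference was -1.27 with a limma adjusted p of 0.0077. Without 4 h replicate 4 it was -0.62, and over all single arrays left out the adjusted p reached 0.35. The 95% interval was -0.46 to 0.50 for NAP1L5, -0.61 to 1.41 for PTPRR, -1.21 to 0.26 for TNNI3 and -0.32 to 0.59 for BBOX1.

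At 4 h on day 4, only TC2N was called among the 7, where 1.55% of all probe sets were called lower and 2.69% higher. It was lower by a difference of -0.70 ± 0.19 (SE) with no overlap (limma adjusted p = 0.027), close to the size seen on day 11, although leaving out any of 5 single arrays took the adjusted p past the threshold, up to 0.086. BCAT2 was 0.79 ± 0.25 higher at 4 h with no overlap and did not pass the test (limma adjusted p = 0.078). BBOX1 differed by -0.72 ± 0.22 (limma adjusted p = 0.06) and by -1.05 on its other probe set. Of the probe sets called in this comparison 63.4% were higher, or 53.2% once each array's median was subtracted.

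The difference between the days in the 4 h response was itself tested. This test uses the 0 h arrays of both days, which helped choose the genes, so it is not independent of that choice. BCAT2 was the only one of the 7 genes called, where 0.375% of all probe sets were called lower and 0.725% higher. Its response was lower on day 11 than on day 4 by -1.80 ± 0.36 (SE), with a 95% interval of -2.52 to -1.07 and a limma adjusted p of 0.007, and the adjusted p stayed between 0.0018 and 0.019 over 30 alternatives. For TC2N the difference between responses was 0.05, with an interval of -0.49 to 0.60 (limma adjusted p = 0.97). For PTPRR it was 1.41, with an interval of -0.01 to 2.83 (limma adjusted p = 0.44), and for BBOX1 0.86, with an interval of 0.219 to 1.496 (limma adjusted p = 0.21).

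**Figure D2:**
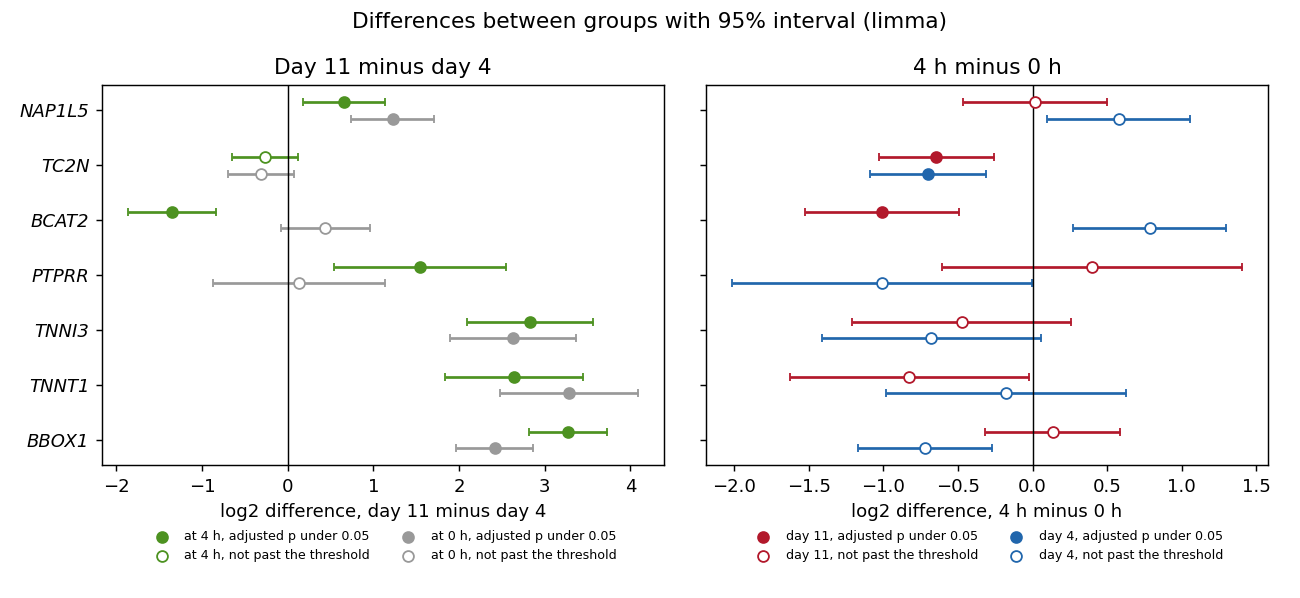
Differences in log2 signal (horizontal axis) with 95% intervals from limma for the 7 genes (vertical axis), on the left day 11 minus day 4 at 4 h and at 0 h, on the right 4 h minus 0 h on day 11 and on day 4; filled points have an adjusted p under 0.05. TNNI3, TNNT1 and BBOX1 lie far to the right on the left side at both times, and BCAT2 has opposite signs on the 2 days on the right side.

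Over the 30 arrays some of the 7 genes followed each other closely and others not at all. Pearson's r was 0.87 between TNNI3 and TNNT1, 0.87 between TC2N and BCAT2, 0.86 between TNNI3 and BBOX1, 0.81 between NAP1L5 and TC2N and 0.80 between TNNT1 and BBOX1. It was 0.09 between TC2N and BBOX1 and -0.07 between BCAT2 and BBOX1. These values describe groups that share treatment and day. The 0 and 24 h arrays among them also chose the genes, so these r are not independent of that choice. For the pairs at 0.80 or more, many other genes were as close. Ranked by r to the first gene of the pair among all named genes, the second stood at 14, 110, 19, 59 and 79, in the order given. After group means were taken out, r was highest for BCAT2 and TNNT1, at 0.60 against 0.16 over all arrays. It was 0.45 for TNNI3 and TNNT1, 0.42 for NAP1L5 and TC2N, 0.05 for TC2N and BCAT2, 0.21 for TNNI3 and BBOX1 and -0.31 for TNNT1 and BBOX1.

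The genes most like each member over the 30 arrays were sought among all named genes, as a description with no test. TC2N ran closest to HSD3B1, the enzyme that makes progesterone from pregnenolone, with an r of 0.96, followed by CHGA, a protein of secretory granules, at 0.96 and ISOC2 at 0.95. NAP1L5 ran closest to ELOVL6, which lengthens fatty acids, at 0.94, then AACS at 0.93 and MVD at 0.92, enzymes of ketone body use for lipid synthesis and of the mevalonate pathway. BCAT2 had RGN at 0.94, NDUFB11, a subunit of respiratory complex I, at 0.94 and PRDX5 at 0.91. PTPRR had no equally close companion: QPRT stood first at 0.83, then SCD at 0.79 and PMM2 at 0.77. TNNI3 had PEBP1 at 0.90, TMEM230 at 0.90 and HABP4 at 0.89, and TNNT1 had GCAT, TM7SF2 and CYP2D14, all at 0.92. BBOX1 had BABAM2 at 0.92, PLAC9 at 0.91 and again CYP2D14, at 0.90. The mean profile of the 7 was closest to SCD, the stearoyl-CoA desaturase, at 0.96, to NSDHL at 0.95, and to AACS, HSPE1 and MVK at 0.94, among which NSDHL and MVK are enzymes of cholesterol synthesis.

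The neighbours of the genes in the RefSeq gene table of assembly ARS-UCD2.0 were read as well. TNNI3 and TNNT1 lie next to each other on chromosome 18, which also holds BCAT2 elsewhere. PPP1R12C, on the far side of TNNT1, differed by only -0.36 at 24 h on day 11 (limma adjusted p = 0.007). NAP1L5 lies inside HERC3 on chromosome 6. The HERC3 probe set averaged 4.24 at 24 h and 4.44 at 0 h on day 11, both under the dim limit of 4.50, where a fall may not show. FBLN5, next to TC2N, fell by 1.20 (limma adjusted p = 5.2e-07), and FIBIN, next to BBOX1, fell by 1.19 (limma adjusted p = 0.00029). HSD17B14 next to BCAT2 differed by -0.39 (limma adjusted p = 0.22). CPNE8 and PTPRB, on either side of PTPRR, differed by 0.45 (limma adjusted p = 0.035) and 0.14 (limma adjusted p = 0.68). At 4 h on day 11 the called neighbours were FBLN5 at -0.52, PPP1R12C at -0.32, FIBIN at -1.52 and CPNE8 at 1.08. Their limma adjusted p were 0.017, 0.026, 3.6e-05 and 1.8e-05. Of the genes beside them TC2N was called then, and TNNT1, BBOX1 and PTPRR were not.

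The 5 regressing glands were not equally low. In day 11, 24 h replicate 1 the signal was the lowest of its group for NAP1L5, TC2N, BCAT2, TNNI3 and BBOX1, but not for PTPRR and TNNT1. Its difference from the 0 h mean was -4.25 for TC2N, against -3.15 to -2.50 in the other 4, and -4.17 for TNNI3, against -3.10 to -2.78. The same gland was set apart in the steroid genes STAR and HSD3B1. STAR, the cholesterol carrier, was at -2.90 there against -1.28 to -0.78 in the others, and HSD3B1 at -3.65 against -2.08 to -1.79. CYP11A1, which cuts the side chain of cholesterol, was at -0.73 within a range of -0.85 to -0.58. Without this array the day 11 difference was -2.93 for TC2N and -3.80 for NAP1L5.

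**Figure D3:**
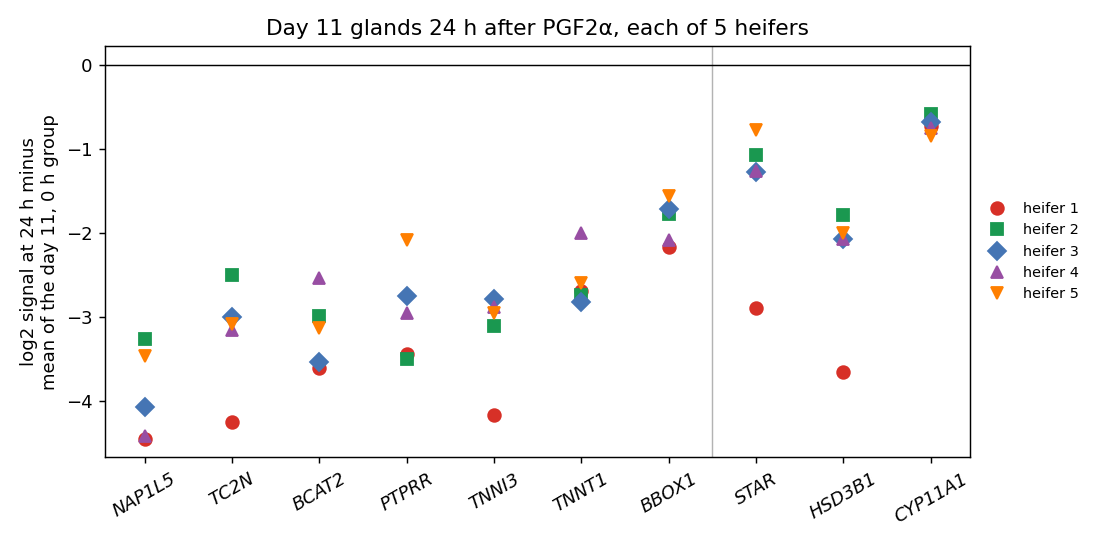
Log2 signal in each of the 5 day 11 glands at 24 h minus the mean of the day 11, 0 h group (vertical axis) for the 7 genes and for 3 steroid genes (horizontal axis); each symbol is 1 heifer. Replicate 1 (red circles) is the lowest for TC2N, TNNI3, STAR and HSD3B1 by a wide margin.

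The other genes of each pathway were followed with lists that leave out the 7 genes. Over all 9155 genes, each read by its brightest probe set, 20% were called lower and 17.9% higher at 24 h on day 11, and the median difference was -0.01. Of 21 measured genes of branched-chain amino acid transport and breakdown, the pathway that BCAT2 opens, 12 fell, 2 rose and 7 were not called, with a median of -0.50. HIBCH and HIBADH, enzymes of valine breakdown, fell by 1.16 and 0.91 (limma adjusted p = 2.6e-08 and 8.2e-07). The transporter SLC7A5 rose by 1.51 (limma adjusted p = 0.00016). BCAT1, the cytosolic counterpart of BCAT2, differed by -0.57 and was not called (limma adjusted p = 0.22). On day 4 at 24 h 4 genes of the list rose and 1 fell, where 3.03% of genes were called higher and 4.73% lower. Without day 4, 24 h replicate 4 none of these rises was called. At 4 h on day 11, 6 of the 21 were called lower and 1 higher, where 13.1% of genes were called lower and 10.1% higher, and with only the arrays of that comparison 1 was lower. PPM1K, the phosphatase of the branched-chain ketoacid dehydrogenase, and DBT, one of its subunits, fell by 0.71 and 0.53 at 4 h (limma adjusted p = 0.012 and 0.0065), and SLC3A2, the partner of SLC7A5, rose by 0.46 (limma adjusted p = 0.0038). Before treatment 11 of the 21 were higher in day 11 than in day 4 glands and 0 lower by limma (2 lower at an unadjusted p under 0.05), where 17.9% of genes were called higher and 26.5% lower.

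Carnitine synthesis and use, the setting of BBOX1, had 3 genes lower and 2 higher of 15 measured at 24 h on day 11, with a median of -0.17. TMLHE, which starts carnitine synthesis, fell by 0.54 (limma adjusted p = 3.9e-06) and CRAT, the carnitine acetyltransferase, by 0.63 (limma adjusted p = 0.00021). CPT1B, a carnitine palmitoyltransferase, rose by 1.23 (limma adjusted p = 4.8e-05). ALDH9A1, the step before BBOX1, differed by 0.21 and was not called (limma adjusted p = 0.23). TMLHE had already fallen by 0.52 at 4 h on day 11 (limma adjusted p = 2.3e-05).

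Of 26 other troponin and sarcomere genes, 3 fell, 4 rose and 19 were not called at 24 h on day 11, with a median of 0.0043. MYH7, the slow myosin heavy chain, fell by 1.03 (limma adjusted p = 2.3e-05). TMOD1, which caps actin filaments, rose by 3.14 (limma adjusted p = 1.9e-14) and CKM, the muscle creatine kinase, by 1.33 (limma adjusted p = 0.0012). Both had already risen at 4 h on day 11, TMOD1 by 0.94 and CKM by 1.70 (limma adjusted p = 4.9e-05 and 0.00019), together with DES, the intermediate filament desmin, by 0.78 (limma adjusted p = 0.049). Of the other troponin subunits, TNNI2, TNNT2 and TNNT3 averaged 4.44, 3.53 and 3.77 at 0 h on day 11, under the dim limit, where a fall may not show. TNNC1 and TNNC2 averaged 5.00 and 4.26 at 24 h against 5.25 and 4.57 at 0 h and were not called. At 0 h TNNC1, the slow and cardiac troponin C, was lower in day 11 than in day 4 glands, by a difference of -1.05 ± 0.23 (SE) (limma adjusted p = 0.00078), the opposite direction to TNNI3 and TNNT1.

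The lists around PTPRR, TC2N and NAP1L5 had members called in both directions. Of 10 MAP kinases and their phosphatases 2 fell and 2 rose at 24 h on day 11, with a median of 0.14. DUSP7, a phosphatase of ERK, fell by 0.60 (limma adjusted p = 0.00011) and MAPK14 and MAPK3 rose by 0.56 and 0.46 (limma adjusted p = 6.4e-05 and 0.0049). Of 10 C2 domain and vesicle traffic genes 3 fell and 1 rose, with a median of -0.12. SYT4, a synaptotagmin, fell by 2.24 (limma adjusted p = 0.03), SYTL2 by 1.01 (limma adjusted p = 0.00012) and RAB27A, the small GTPase that SYTL2 binds, by 0.76 (limma adjusted p = 3.4e-05). Of 11 histone chaperones 3 fell and 2 rose, with a median of -0.085. NPM3, TSPYL4 and SET fell by 0.89, 0.71 and 0.48 (limma adjusted p = 3.2e-06, 3.4e-07 and 1.2e-05), and NAP1L1, the ubiquitous member of the NAP1 family, rose by 0.23 (limma adjusted p = 0.034). Of 19 other imprinted genes 4 fell and 3 rose, with a median of -0.041. PEG10 fell by 1.13 (limma adjusted p = 2.4e-05) while PEG3 and PLAGL1 rose by 1.14 and 0.76 (limma adjusted p = 0.00094 and 0.00016). Without day 11, 0 h replicate 1 the falls of the MAP kinase list and the rises of the chaperone list each came to 1.

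**Figure D4:**
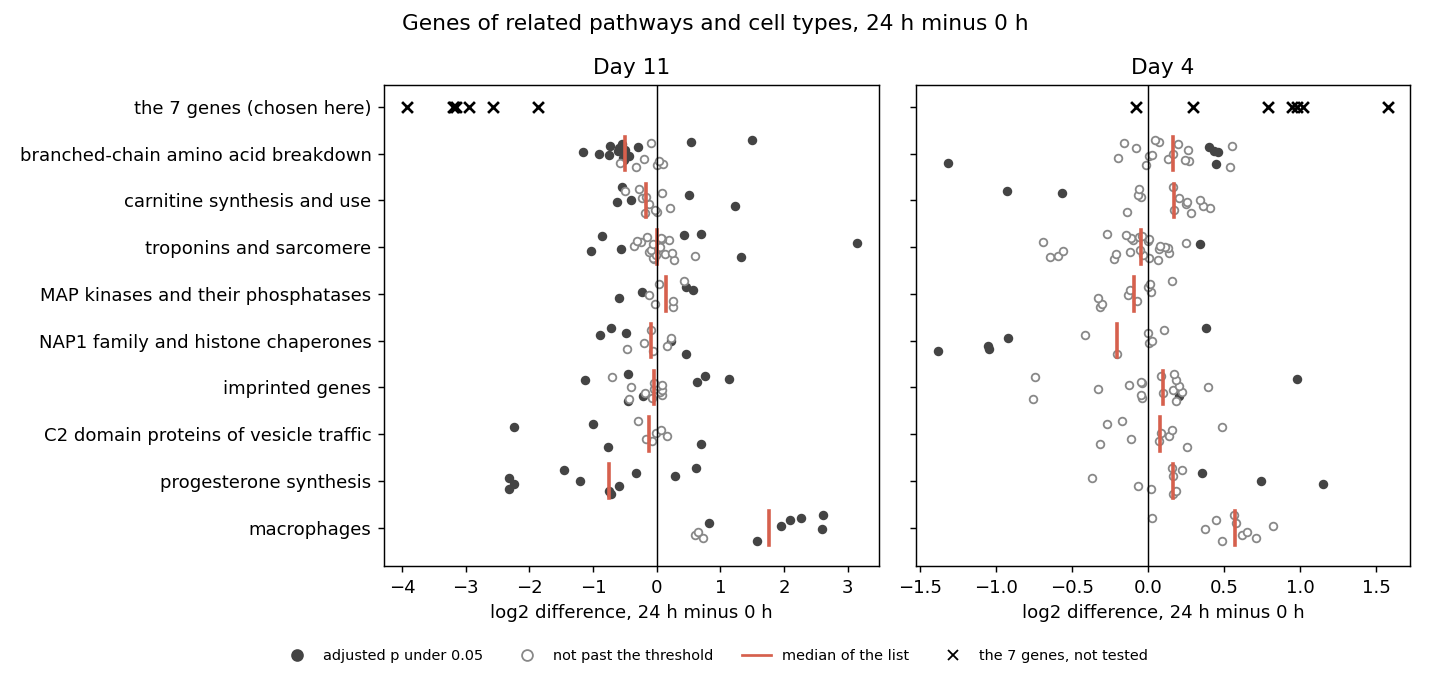
Log2 difference at 24 h minus 0 h (horizontal axis) on day 11 (left) and day 4 (right) for the 7 genes (crosses, not tested) and for each gene of the related lists (circles, filled where the adjusted p is under 0.05), with the median of each list in red; the scales differ between the sides. On day 11 the branched-chain amino acid list has a median of -0.50 and the progesterone list of -0.75, and the macrophage list of 1.77.

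Markers of the cell types in the tissue moved at the same time. Of 11 measured genes of progesterone synthesis 9 fell and 2 rose at 24 h on day 11, with a median of -0.75, and NR5A2, a nuclear receptor that drives steroid genes, fell by 2.33 (limma adjusted p = 2.1e-07). The mean level of that list was 9.71 to 10.40 in the 5 glands at 24 h against 11.15 to 11.27 at 0 h. Of 10 macrophage markers 7 rose and none fell, with a median of 1.77, and their mean level was 9.68 to 10.42 at 24 h against 7.92 to 8.65 at 0 h. Of 11 T and NK cell markers 8 rose and none fell, with mean levels of 5.50 to 6.23 at 24 h against 4.88 to 5.08 at 0 h. Of 13 endothelial markers 6 fell and 1 rose, with mean levels of 7.59 to 7.73 at 24 h against 7.81 to 8.02 at 0 h. Of 11 fibroblast and pericyte markers 3 rose and none fell, with mean levels of 10.09 to 10.41 at 24 h against 9.58 to 9.94 at 0 h. Of 8 smooth muscle markers 1 rose and 1 fell, with mean levels of 8.32 to 8.87 at 24 h against 8.45 to 9.11 at 0 h. None of 5 red blood cell markers was called by limma, and 1 of them, AHSP, was lower at an unadjusted p under 0.05. No macrophage, T and NK cell or fibroblast marker was lower at an unadjusted p under 0.05 either. Without day 11, 0 h replicate 1 the rises of the endothelial and of the smooth muscle list came to 0, and without day 11, 0 h replicate 3 the rises of the progesterone list to 1. The part of these shifts in the lower signals of the 7 genes was not tested.

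Striated muscle markers were set beside the troponins. Of 11 measured, MYH7 and MYL2 fell and CKM rose at 24 h on day 11, and their mean level was 5.57 to 5.85 at 24 h against 5.68 to 5.96 at 0 h. ACTA1, the skeletal muscle actin, averaged 4.30 at 24 h and 4.02 at 0 h, below the dim limit of 4.50, and TNNT3, the fast skeletal troponin T, averaged 3.84 and 3.77. Other markers of the list were bright at 0 h on day 11, MYH7 at 11.23 and CKM at 9.45. At 0 h TNNI3 and TNNT1 were 2.63 and 3.29 higher in day 11 than in day 4 glands on the log2 scale. The mean level of the striated muscle list was then 5.68 to 5.96 in day 11 glands and 5.39 to 5.64 in day 4 glands. Of its 11 markers 3 were called higher in day 11 glands and 2 lower, where 17.9% of genes were called higher and 26.5% lower. MYH7 averaged 11.23 in day 11 and 10.17 in day 4 glands at 0 h.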

How the data were processed

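Each heifer's luteal RNA was hybridized to 1 array. The authors deposited log2 values made with RMA, per the submitters' processing notes; the version, and the arrays processed together, are not given in the sources used here, and scanner files were not used. Groups come from the sample titles. The 112 control probe sets of 24128 were dropped, which left 24016; of these 13292 carry 1 gene symbol in the platform annotation, 86 several and 10638 none. For a gene with several probe sets, the one brightest on average stands for it.

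One limma fit (3.58.1, R 4.3.3) covered all arrays, with group means only and 24 residual degrees of freedom; its procedure was first tested on simulated data. Benjamini-Hochberg adjustment ran over all probe sets within a comparison, and a call means an adjusted p under 0.05. Replicates are separate heifers. Replicate numbers were not used as pairing in this fit. With group means taken out, same-numbered arrays at 4 h and 0 h correlated at 0.15 to 0.21 on day 4 and at 0.063 to 0.23 on day 11. In each other comparison at least 1 pair had an r of 0.018 or less. Alternatives were a replicate block, other normalizations, filters, fits and thresholds, and each array left out.

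The 7 genes and the 15 lists, which were written from general knowledge, were chosen with earlier results of these data known. Named are all 7 genes with their probe sets, the 3 genes most like each and the 5 most like their mean, up to 3 called genes per list with the largest change at 24 h or 4 h on day 11 (or, with no call, the 2 of lowest p), the next gene by rank, and neighbours in the RefSeq table of ARS-UCD2.0. Named after their values were seen are STAR, CYP11A1, BCAT1, ALDH9A1, NAP1L1, ACTA1, the other troponin subunits, and ASF1B, CHAF1B, CHAF1A and NASP. A promoter motif search was planned and not run, as no promoter sequence was used here.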

Additional observations from a re-analysis of the deposited data

Results flagged for a closer look

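Single heifers stood apart from the other 4 of their group, by a gap beyond Dixon's 95% critical value, in 6 of 60 groups examined over the 10 probe sets. Chance gives this in about 1 of 20 groups. BCAT2 was 10.01 in day 11, 0 h replicate 4, against 10.81 to 11.12 in the others. PTPRR was 7.98 in day 4, 0 h replicate 4, against 9.27 to 9.70, and 8.17 in day 4, 24 h replicate 2, against 10.46 to 10.95. TNNI3 was 7.85 in day 11, 4 h replicate 1, the array with the deviating EF1A value, against 8.99 to 9.30, and 5.19 in day 11, 24 h replicate 1, against 6.26 to 6.58. TNNT1 was 5.94 in day 11, 24 h replicate 4, against 5.12 to 5.35.

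The 4 h response of BCAT2 differed between day 11 and day 4, by -1.80 on the log2 scale in the test of the difference itself. That test shares its 0 h arrays with the choice of the genes and is not independent of it.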

How the results depend on the processing

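The main limits are the 5 arrays per group, the lack of a saline group at 4 and 24 h, and the day 4, 24 h group, where 1 array decides much of the count. Each tested value of a single gene was set against each of its alternatives. Of these pairs of value and alternative, 730 kept direction and side of the threshold, 17 lost the call, 11 gained it and 12 turned sign. The sign turned at 4 h on day 11 for NAP1L5 and BBOX1 (-0.029 and -0.027 when the probe sets of a gene were averaged, and -0.097 to 0.13 and -0.055 to 0.35 with 1 array left out), for PTPRR at 0 h between the days (-0.0053 with array weights, -0.21 to 0.36 with 1 array left out) and for TC2N in the difference of the 4 h responses (-0.0058 to 0.11 with 1 array left out). None of these was called in any setting. Averaging the probe sets made the day 11, 24 h differences -2.09 for NAP1L5, -1.75 for BCAT2 and -2.13 for BBOX1.

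Of the 7 genes, 2 were called at 4 h on day 11 and 1 with an adjusted p under 0.01 or a 2-fold minimum. At 4 h on day 4, 1 was called, 2 with array medians subtracted, the dimmest 30% left out, only the arrays of the comparison or probe sets averaged, 3 with array weights, 0 with an adjusted p under 0.01 or a 2-fold minimum, and 0 to 2 with 1 array left out. BCAT2 passed there with array weights (adjusted p = 0.011) and with only the arrays of the comparison (0.016).

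The count of called probe sets at 4 h on day 11 was 4409, and 2520 with only the arrays of the comparison, 2599 at an adjusted p under 0.01 and 659 with a 2-fold minimum. At 4 h on day 4 it was 1018, against 1981 with array weights, 464 at 0.01, 226 with a 2-fold minimum and 608 to 1061 with 1 array left out (608 without day 4, 4 h replicate 1). For the difference of the 4 h responses it was 264, against 94 at 0.01, 129 with a 2-fold minimum and 157 to 356 (157 without day 4, 4 h replicate 2). A 2-fold minimum left 1360 of 8128 at 0 h between the days, 1214 of 7537 at 4 h and 1416 of 7121 at 24 h on day 11. At 24 h on day 4 it was 1240, against 2356 with array weights, 147 with only the arrays of the comparison, 306 at 0.01, 244 with a 2-fold minimum and 357 (without day 4, 24 h replicate 4) to 2071 (without replicate 1). The causes were not tested.

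With the replicate number as a block the counts of called probe sets were 4704 at 4 h on day 11 and 1123 at 4 h on day 4, TC2N on day 4 had an adjusted p of 0.026, and no call of the 7 genes changed. On day 11 each of the 5 arrays at 4 h correlated best with the same-numbered array at 0 h, a hint from the data and not from the design.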

Other observations

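Histone chaperones, several of which load histones during DNA replication, changed in the day 4 glands, where NAP1L5 differed by 0.30 at 24 h. Of the 11 listed, 4 fell and 1 rose at 24 h on day 4, where 4.73% of genes were called lower and 3.03% higher. The log2 differences were -1.38 for ASF1B, -1.06 for CHAF1B, -1.05 for CHAF1A and -0.93 for NASP (limma adjusted p = 0.019, 0.0022, 0.0059 and 0.0066). With only the arrays of that comparison 1 of the falls was called. In day 11 glands at 24 h none of these 4 was among the genes of the list that were called. Before treatment all 4 were already lower in day 11 than in day 4 glands. The differences at 0 h were -2.41 for ASF1B, -1.68 for CHAF1B, -1.61 for CHAF1A and -1.50 for NASP (limma adjusted p = 4.2e-06, 9.5e-08, 1.3e-06 and 8.1e-07). Whether the 24 h responses of these genes differ between the days was not tested.

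CNN1, the smooth muscle calponin, rose by 2.67 at 4 h on day 11 and was 0.80 higher at 24 h (limma adjusted p = 5.7e-08 and 0.03). On day 4 it rose by 1.06 at 4 h (limma adjusted p = 0.026). CKM rose at 4 h on both days, by 1.70 on day 11 and by 1.19 on day 4 (limma adjusted p = 0.00019 and 0.02). On day 4 at 24 h it differed by -0.65 and was not called (limma adjusted p = 0.26). FAP, a protease of activated fibroblasts, rose by 2.65 at 24 h on day 11 (limma adjusted p = 6.4e-10).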
